A study of Mus musculus with 3 samples.

Results

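The genes described here are 8 genes that govern mineral deposition and phosphate handling in the skeleton, Alpl, Phospho1, Enpp1, Phex, Fgf23, Slc20a1, Slc20a2 and Fam20c. They were taken by symbol from a table of 26970 genes from RNA sequencing of mouse mandibular condyles, and all 8 are in it. The mice were 4 months old and of 3 genotypes: wild-type (WT), heterozygous for a global knockout of Dspp (Dspp+/-) and homozygous for it (Dspp-/-), on the C57BL/6 background that all groups share. The knockout is present in every tissue. In mice older than those sequenced, the study describes loss of teeth in Dspp-/-, which can disturb the bite, and minor tooth defects in Dspp+/-. Each genotype has 1 library of condyle tissue with cartilage and subchondral bone left joined, pooled from 3 animals for WT and for Dspp+/-, while the number behind Dspp-/- is not given in the sources used here. Since a genotype is a single library, genotypes could not be tested against each other, and all differences are between single libraries.

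Bone and calcified cartilage mineralize when phosphate is released beside the matrix while pyrophosphate, which blocks crystal growth, is removed. ENPP1 makes pyrophosphate outside the cell, and the alkaline phosphatase encoded by Alpl splits it, whereas PHOSPHO1 supplies phosphate inside matrix vesicles, the small membrane sacs in which the first crystals form. PHEX, a membrane endopeptidase of osteoblasts and osteocytes, and the hormone FGF23, which makes the kidney excrete phosphate, set the phosphate level of the blood. SLC20A1 and SLC20A2 carry phosphate into cells together with sodium, and FAM20C is the Golgi kinase that phosphorylates secreted proteins, among them the acidic matrix proteins of bone and dentin.

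The value per gene was read as FPKM, fragments scaled to gene length and library depth, so that levels of different genes can be set side by side. FPKM times exon length gave whole fragments, and the libraries held 20241576 fragments in WT condyles, 23613621 in those of Dspp+/- mice and 22253158 in those of Dspp-/- mice. Each fold is given with its 95% Clopper-Pearson interval from these fragments, which covers counting error only and not the spread between mice. Because Dspp was not analysed here, it could not serve to check the genotype labels. Transcripts of the mitochondrial genome made up 25.0% of all FPKM in the WT library and 36.9% and 37.3% in the Dspp+/- and Dspp-/- libraries. All 9 osteoblast, 5 osteocyte, 11 chondrocyte and 8 osteoclast markers had fragments in every library, the fewest being 6 of Cnmd in Dspp+/-. This shows RNA of bone and cartilage and cannot tell the condyle from other skeletal tissue.

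Among the 8 genes, Alpl, Phex and Fam20c were at least 2-fold lower in Dspp+/- than in WT, and Alpl was so in Dspp-/- as well. The calls of Fam20c in Dspp+/- and of Alpl in Dspp-/- lie near the threshold, and each ended under another setting: with a pseudocount of 5 FPKM the log2 ratio of Fam20c was -0.797, and with mitochondrial genes left out of the scaling that of Alpl was -0.971. Scaling to osteoblast markers ended the calls of all 3 genes. The transporter genes Slc20a1 and Slc20a2 lay within 1.5-fold of WT in both mutant libraries. These differences are log2 ratios of FPKM + 1, taken for the 13026 genes that average 1 FPKM or more, a filter that 7 of the 8 genes pass and Fgf23 does not. In Dspp+/-, 3 of the 7 genes passed the 2-fold threshold downward, against 2.86% of all genes compared, and none passed it upward, against 4.88%. In Dspp-/-, 1 of the 7 passed it downward, against 1.37%, and none upward, against 4.05%. Between the mutant libraries none of the 7 differed by 2-fold, where 0.798% of all genes were lower and 0.852% higher in Dspp-/- than in Dspp+/-. As a median over the 7 genes, the log2 ratio was -0.85 for Dspp+/- and -0.595 for Dspp-/-, while the median over all genes compared was 0.058 and 0.007. Both mutant libraries were set against the same WT library, so they are not independent of each other.

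**Figure D1:**
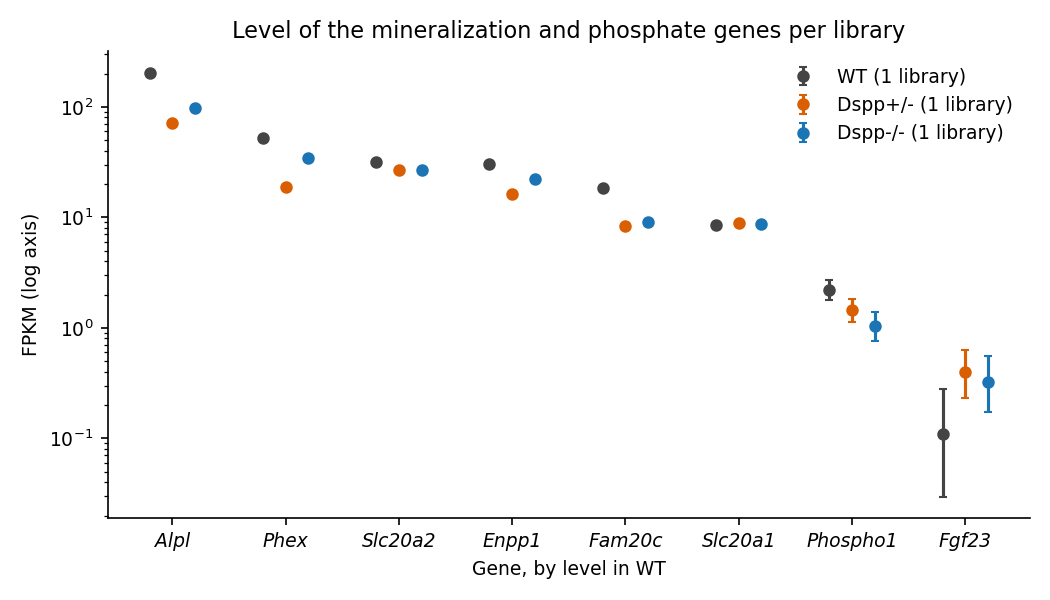
FPKM (log axis) of the 8 genes in the WT, Dspp+/- and Dspp-/- libraries, ordered by level in WT; points are single libraries and bars 95% Poisson intervals of the fragments, which are narrower than the points for the higher genes. Alpl, Phex, Enpp1 and Fam20c are highest in WT, Slc20a1 is nearly level, and Fgf23 lies under 1 FPKM in all 3 libraries. Phospho1 shares 89.6% of its exon length with other genes, so its level cannot be set beside the others.

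The promoters of the 3 genes that passed 2-fold in Dspp+/-, and of Slc20a1, which was level, are shown because their base composition and motifs differ widely. They are RefSeq sequences of build GRCm38.p6 from 250 bases before to 50 after the gene start, 5′ to 3′ on the strand of the gene. RefSeq entries were found for 7 of the 8 genes, 9 in all, with 2 starts each for Alpl and Slc20a1, of which the upstream ones are given. Capitals mark matches on either strand to TATAAA (the TATA motif), GGGCGG (the GC box), TGTGGT (the RUNX motif), TGANTCA (the AP-1 motif), TAATTA (a homeobox motif) and AGGTCA (a nuclear receptor motif).
Alpl, chr4:137796335-137796634, minus strand: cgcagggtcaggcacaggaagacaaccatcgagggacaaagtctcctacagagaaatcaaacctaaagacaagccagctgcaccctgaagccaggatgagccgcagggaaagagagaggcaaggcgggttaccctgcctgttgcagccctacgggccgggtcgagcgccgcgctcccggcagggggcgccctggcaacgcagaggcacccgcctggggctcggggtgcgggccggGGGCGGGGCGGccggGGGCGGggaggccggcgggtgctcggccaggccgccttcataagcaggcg
Phex, chrX:157415237-157415536, minus strand: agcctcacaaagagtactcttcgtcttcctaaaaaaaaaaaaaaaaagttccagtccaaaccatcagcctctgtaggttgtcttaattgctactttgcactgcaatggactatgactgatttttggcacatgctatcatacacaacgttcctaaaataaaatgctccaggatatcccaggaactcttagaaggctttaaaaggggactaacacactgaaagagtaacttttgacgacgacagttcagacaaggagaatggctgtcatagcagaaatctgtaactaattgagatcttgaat
Fam20c, chr5:138754831-138755130, plus strand: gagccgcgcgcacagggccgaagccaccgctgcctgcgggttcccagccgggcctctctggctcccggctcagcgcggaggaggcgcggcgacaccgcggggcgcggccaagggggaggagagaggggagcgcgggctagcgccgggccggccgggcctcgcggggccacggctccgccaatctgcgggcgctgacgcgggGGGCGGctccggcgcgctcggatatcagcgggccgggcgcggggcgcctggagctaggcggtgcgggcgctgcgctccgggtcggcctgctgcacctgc
Slc20a1, chr2:129198523-129198822, plus strand: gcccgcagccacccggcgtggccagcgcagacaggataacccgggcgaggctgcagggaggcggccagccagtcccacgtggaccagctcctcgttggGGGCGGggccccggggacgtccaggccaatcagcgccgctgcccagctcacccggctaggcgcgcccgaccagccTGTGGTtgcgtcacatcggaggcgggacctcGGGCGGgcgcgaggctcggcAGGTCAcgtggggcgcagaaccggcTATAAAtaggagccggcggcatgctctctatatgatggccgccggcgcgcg

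The Alpl promoter has a GC content of 70.0% and 3 GC boxes, which begin at positions -15, -10 and 1 relative to the gene start, the first pair overlapping by 1 base. The Fam20c promoter has 80.7% GC and 1 GC box, at -49. The Slc20a1 promoter, with 73.0% GC, holds a RUNX match at -77, GC boxes at -152 and -46, a nuclear receptor match at -26 and a TATA match at -1. The Phex promoter has 38.7% GC and no match to any of the 6 motifs, as has that of Fgf23. The median GC content of all 32851 promoters in the table is 52.7%. Of these, 35.7% hold a GC box, 16.8% a RUNX match, 16.3% a nuclear receptor match, 13.6% a TATA match, 7.81% an AP-1 match and 5.29% a homeobox match. The RUNX letters occur in the windows of Enpp1 and Slc20a1 and in none of Alpl, Phex or Fam20c. These matches are letters in a window and not binding sites, and no motif of the 6 is in all of the Alpl, Phex and Fam20c windows.

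Alpl encodes tissue-nonspecific alkaline phosphatase and was the highest of the 8 genes in every library. In the coordinates of the deposited table, whose mouse build is not named, the gene lies on chromosome 4 from 137469044 to 137523695 on the minus strand, and positions of the other genes are given likewise. It had 203 FPKM in the WT library, with 70.8 and 97.8 in the Dspp+/- and Dspp-/- libraries. Its level was thus highest in WT, lowest in Dspp+/- and between them in Dspp-/-. Relative to WT the level was 0.348-fold (95% counting interval 0.338 to 0.358) in Dspp+/- and 0.4805 (0.468 to 0.493) in Dspp-/-. On the log2 scale of FPKM + 1 these are differences of -1.51 and -1.05. Of all genes compared, 0.775% had a lower log2 ratio in Dspp+/- and 1.14% in Dspp-/-. In this bulk tissue, fewer cells that express a gene and less RNA per cell cannot be told apart.

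Enpp1, the source of extracellular pyrophosphate, was lower in both mutant libraries as well, but by less than Alpl. The gene, on the minus strand of chromosome 10 from 24513812 to 24588057, had 30.1 FPKM in WT against 16.3 (Dspp+/-) and 22.3 (Dspp-/-). Its fold was 0.541 (0.520 to 0.564) for Dspp+/- and 0.739 (0.712 to 0.767) for Dspp-/-, neither of which reaches 2-fold. Alpl stood at 6.76 times the FPKM of Enpp1 in WT (interval 6.56 to 6.96), at 4.34 times in Dspp+/- (4.17 to 4.515) and at 4.39 times in Dspp-/- (4.24 to 4.55). Alpl RNA was therefore lower relative to Enpp1 RNA in both mutant libraries, by more than counting error. This ratio is taken within a library and does not depend on the scaling between libraries. It is a ratio of RNA in bulk tissue, and the amount and activity of the enzymes were not measured here.

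The other genes of pyrophosphate handling did not reach 2-fold in either mutant library. Ank, the membrane protein through which cells release pyrophosphate or its precursor, had 119 FPKM in WT condyles, 104.5 in those of Dspp+/- mice and 103 in those of Dspp-/- mice, with folds of 0.877 (0.852 to 0.904) and 0.861 (0.835 to 0.887). Nt5e encodes CD73, which makes adenosine from AMP, the other product of ENPP1. It had 29.45 FPKM in the WT library, with 16.7 and 19.9 in the Dspp+/- and Dspp-/- libraries. Over the 4 genes compared in this list, which also holds Enpp3 and the adenosine transporter gene Slc29a1, log2 ratios ran from -0.785 to -0.187 for Dspp+/- and from -0.746 to -0.003 for Dspp-/-. In Dspp-/- both Slc29a1, with a fold of 0.589 (0.561 to 0.618), and Nt5e, with 0.677 (0.649 to 0.706), lay further from WT than Enpp1. Abcc6, which is needed for the release of ATP by the liver, had 0, 1 and 3 fragments in WT, Dspp+/- and Dspp-/-, and no fold is given.

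Phospho1 had a low value in all 3 libraries, and its level cannot be set beside those of the other genes. The gene lies on the plus strand of chromosome 11 from 95715325 to 95722966. In the GENCODE M21 annotation, 89.6% of its exon length also belongs to exons of Abi3 on the other strand or of a long transcript of Zfp652 on the same strand, and 211 of its 2029 exon bases are its own. The preparation kit named in the labels is not described as keeping strand, and the rule for counting shared fragments is not given in the sources used here. Over the table, the 107 protein-coding genes with at least 80% of their exon length shared had a median of 0.0527 FPKM, and the 11275 with none shared had a median of 3.23 FPKM. Phospho1 had 2.22 FPKM in WT against 1.44 (Dspp+/-) and 1.04 (Dspp-/-), from 91, 69 and 47 fragments. Its fold was 0.650 (0.468 to 0.899) for Dspp+/- and 0.470 (0.323 to 0.675) for Dspp-/-. The last fold, a log2 ratio of -0.656 once 1 FPKM is added, does not pass the threshold. The mutant libraries did not differ beyond counting error, with a fold of 0.723 (0.488 to 1.06). Abi3 had 136, 143 and 105 fragments in the same order and Zfp652 had 2506, 3100 and 3111. The part of these neighbours in the Phospho1 values was not tested.

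Genes that act beside PHOSPHO1 in matrix vesicles were better covered. Smpd3 encodes the neutral sphingomyelinase that releases phosphocholine, the substrate of PHOSPHO1, and it had 49.1 FPKM in WT condyles, 10.7 in those of Dspp+/- mice and 18.1 in those of Dspp-/- mice. Its folds of 0.218 (0.205 to 0.232) and 0.369 (0.350 to 0.388) set it lowest of the 24 pathway genes compared in Dspp+/-, and lowest but for Mepe in Dspp-/-. Enpp6, a choline phosphodiesterase that also yields phosphocholine, had 14.6, 6.505 and 12.5 FPKM. It was 2-fold lower in Dspp+/-, with a fold of 0.445 (0.4115 to 0.481), and not in Dspp-/-, with 0.853 (0.799 to 0.911). Chka, the choline kinase, and the vesicle annexins Anxa2, Anxa5 and Anxa6 did not pass 2-fold, with log2 ratios from -0.60 to 0.125 in Dspp+/-. Of the 6 genes of this list, 2 were at least 2-fold lower in Dspp+/- and 1, Smpd3, in Dspp-/-. Of all genes compared, 2.86% and 1.37% were so.

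Phex was the gene of the 8 that differed most between the mutant libraries. It lies on the minus strand of the X chromosome from 155945071 to 156198308. Its level was 52.4 FPKM in the WT library, with 18.8 and 34.4 in the Dspp+/- and Dspp-/- libraries, from 6673, 2790 and 4811 fragments. Relative to WT, Phex stood at 0.358 (0.343 to 0.375) for Dspp+/- and 0.656 (0.632 to 0.681) for Dspp-/-, and only the first passes 2-fold. Phex in Dspp-/- was 1.83 times its level in Dspp+/- (1.75 to 1.92), and 98.6% of all genes compared had a lower log2 ratio between these libraries. Set against other genes of osteocytes, Phex was 0.275 times the FPKM of Dmp1 in WT (0.267 to 0.284), 0.267 times in Dspp+/- (0.254 to 0.280) and 0.432 times in Dspp-/- (0.415 to 0.450). Phex thus kept its ratio to Dmp1 within counting error in Dspp+/- and was higher relative to Dmp1 in Dspp-/-. Against Mepe the ratio was 0.142 in WT against 0.176 (Dspp+/-) and 0.277 (Dspp-/-). The 5 genes of the osteocyte marker list, which holds neither Dmp1 nor Mepe, all lay nearer to WT than Phex in Dspp+/-. Their log2 ratios ran from -1.066 to -0.630 there, against -1.433 for Phex. In Dspp-/- they ran from -1.282 to -0.303, to both sides of the -0.595 of Phex. Phex is X-linked, and the pools differed in sex-linked transcripts. Xist, the RNA of the inactive X chromosome of females, had 2 fragments in WT condyles, 12084 in those of Dspp+/- mice and 10563 in those of Dspp-/- mice, and the summed FPKM of 4 Y-linked genes was 36.6, 19.0 and 25.9. Sex and genotype cannot be told apart in these pools, and the part of sex in the Phex values was not tested.

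Fgf23 was barely detected. The gene, on the plus strand of chromosome 6 from 127049865 to 127058371, had 4 fragments in the WT library, with 17 and 13 in the Dspp+/- and Dspp-/- libraries, which are 0.109, 0.397 and 0.322 FPKM. It was the only one of the 8 genes whose value was lowest in WT by more than 1.5-fold. The fold was 3.64 in Dspp+/-, with a counting interval from 1.19 to 14.9, and 2.96 in Dspp-/-, with an interval from 0.913 to 12.45 that includes 1. At this depth a difference from WT was detectable beyond counting error in Dspp+/- and not in Dspp-/-. The mutant libraries did not differ beyond counting error, with a fold of 0.812 between them (0.363 to 1.77). The 6 erythroid markers used, among them Hbb-bs and Alas2, had a summed FPKM of 829.6 in WT against 3484 (Dspp+/-) and 3321 (Dspp-/-). All 6 were at least 2-fold higher in both mutant libraries, as were 4.88% and 4.05% of all genes compared. The part of the erythroid markers in the Fgf23 values was not tested.

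The genes around FGF23 were mostly lower in the mutant libraries. Of 8 genes in the list, 5 could be compared, all 5 were lower in both mutant libraries, and 2 passed 2-fold in Dspp+/-. Of all genes compared, 43.7% were lower in Dspp+/- and 49.3% in Dspp-/-, and 2.86% were at least 2-fold lower in Dspp+/-. Pth1r, the receptor of parathyroid hormone, had 164 FPKM in WT condyles, 60.5 in those of Dspp+/- mice and 76.55 in those of Dspp-/- mice, with folds of 0.3685 (0.355 to 0.382) and 0.467 (0.451 to 0.483). Fgfr1, the main receptor of FGF23 together with klotho, had 64.6, 31.0 and 38.7 FPKM, with folds of 0.481 (0.467 to 0.495) and 0.599 (0.582 to 0.615). Galnt3, whose glycosylation protects FGF23 from cleavage, had 2.95, 1.355 and 1.78 FPKM, and its fold of 0.460 (0.372 to 0.567) in Dspp+/- is a log2 ratio of -0.745 once 1 FPKM is added. Vdr, the vitamin D receptor, had 22.5, 12.0 and 14.6 FPKM. Kl, which encodes klotho, had 2, 0 and 1 fragments, under the floor of 3 fragments set here, and Cyp24a1 had 0, 1 and 0.

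The phosphate transporter genes stood apart from Alpl, Phex and Fam20c in Dspp+/-, and neither came near 2-fold in either mutant library. Slc20a1, which encodes PiT-1, lies on the plus strand of chromosome 2 from 129040684 to 129053536, and 13.1% of its exon length overlaps noncoding genes on the other strand. It had 8.43 FPKM in the WT library, with 8.87 and 8.71 in the Dspp+/- and Dspp-/- libraries. The folds were 1.05 (0.965 to 1.15) and 1.03 (0.947 to 1.13), and both intervals include 1. Slc20a2, which encodes PiT-2, lies on the plus strand of chromosome 8 from 22966804 to 23059628 and was the higher transporter gene in every library. It had 31.6 FPKM in WT against 26.8 (Dspp+/-) and 26.6 (Dspp-/-), with folds of 0.849 (0.812 to 0.887) and 0.842 (0.805 to 0.881). The mutant libraries did not differ from each other beyond counting error in either gene. Slc20a2 was 3.75 times Slc20a1 in WT (3.49 to 4.03), 3.02 times in Dspp+/- (2.83 to 3.23) and 3.06 times in Dspp-/- (2.855 to 3.27). Alpl, by contrast, stood at 6.44 times Slc20a2 in WT (6.22 to 6.67), 2.64 times in Dspp+/- (2.54 to 2.75) and 3.67 times in Dspp-/- (3.53 to 3.82). Xpr1, the phosphate exporter gene, had 12.6, 9.31 and 14.0 FPKM. Slc25a3, the phosphate carrier of mitochondria, had 83.2, 123 and 108 FPKM. The kidney and gut transporter genes Slc34a1 and Slc34a2 had at most 3 fragments in any library.

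Fam20c was lower by nearly the same factor in both mutant libraries. The gene lies on the plus strand of chromosome 5 from 138740269 to 138795832, with 18.3 FPKM in WT condyles, 8.40 in those of Dspp+/- mice and 9.16 in those of Dspp-/- mice. Its fold was 0.459 (0.429 to 0.4915) for Dspp+/- and 0.501 (0.468 to 0.536) for Dspp-/-. On the log2 scale of FPKM + 1 the differences are -1.04 and -0.925, so that it passes the 2-fold threshold in Dspp+/- and falls just short in Dspp-/-. The libraries Dspp-/- and Dspp+/- differed by a fold of 1.09 (1.01 to 1.18). Fam20a, the pseudokinase that partners FAM20C, had 7.40, 4.31 and 4.46 FPKM. Fam20b, a kinase of proteoglycan linkers, had 12.1, 11.2 and 10.6 FPKM.

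The genes of the acidic phosphoproteins of bone, substrates of FAM20C, were lower than Fam20c itself relative to WT in Dspp+/-. Ibsp, bone sialoprotein, had 1643 FPKM in the WT library, with 433 and 685 in the Dspp+/- and Dspp-/- libraries, with folds of 0.263 (0.259 to 0.267) and 0.417 (0.412 to 0.423). Mepe, a matrix phosphoglycoprotein of osteocytes, had 369, 107 and 124 FPKM. Dmp1, dentin matrix protein, had 190.5, 70.4 and 79.5 FPKM. Spp1, osteopontin, which osteoclasts and macrophages also express, had 2474, 814 and 1661 FPKM. All 4 genes were at least 2-fold lower in Dspp+/-, and Ibsp, Mepe and Dmp1 were so in Dspp-/-. Mgp, matrix Gla protein, an inhibitor of calcification made by chondrocytes, had 284, 123 and 165 FPKM and passed 2-fold in Dspp+/- alone. Ahsg, the serum inhibitor fetuin-A, had 0, 0 and 5 fragments. Over the 6 pathway lists together, 24 of 31 genes in the table could be compared. Of these, 22 were lower and 2 higher in Dspp+/-, 9 of them at least 2-fold lower, and 22 were lower and 2 higher in Dspp-/-, 5 of them at least 2-fold lower. None was at least 2-fold higher in either, against 4.88% and 4.05% of all genes compared. Of all genes compared, 43.7% were lower in Dspp+/- and 49.3% in Dspp-/-, and 2.86% and 1.37% were at least 2-fold lower.

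**Figure D2:**
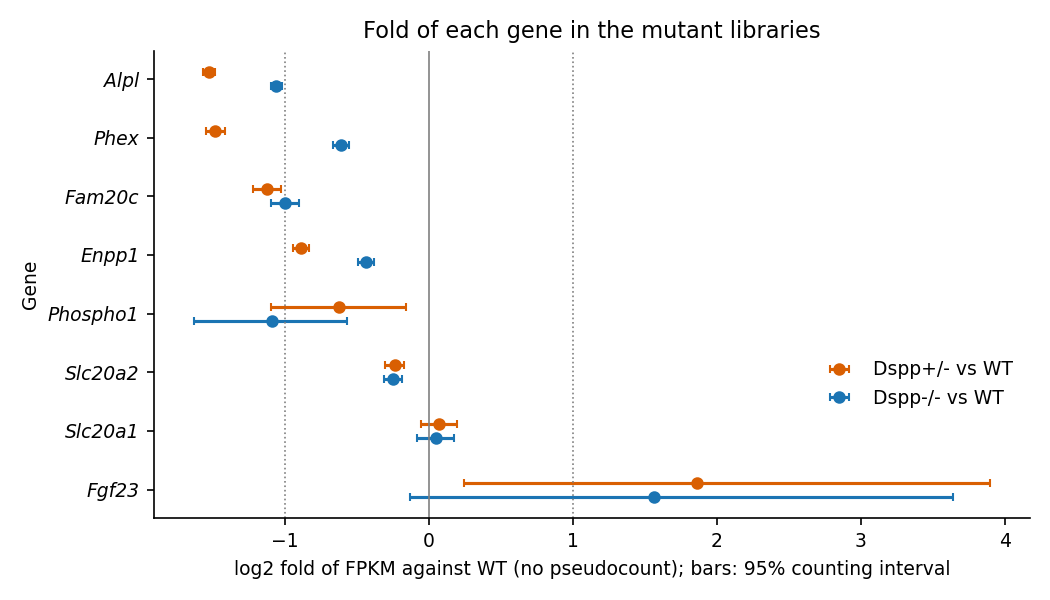
Log2 fold of FPKM against WT, without a pseudocount, for the 8 genes in Dspp+/- and Dspp-/-; each point is 1 library against the WT library, bars are 95% Clopper-Pearson counting intervals, and dotted lines mark 2-fold. Alpl and Phex lie lowest in Dspp+/-, the intervals of Slc20a1 include 0, and those of Fgf23 are wide because WT has 4 fragments.

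The order of levels differed between libraries, as the plot of FPKM per library shows. In WT it ran Alpl, Phex, Slc20a2, Enpp1, Fam20c, Slc20a1, Phospho1 and Fgf23. The place of Phospho1 is that of its deposited value only, since 89.6% of its exon length is shared with other genes. In Dspp+/- Slc20a2 stood above Phex and Slc20a1 above Fam20c, and in Dspp-/- the order was that of WT. Slc20a2 and Enpp1 were close in WT, with a ratio of 1.05 (1.01 to 1.09). Slc20a1 and Fam20c did not differ beyond counting error in Dspp+/-, with a ratio of 1.06 (0.975 to 1.14), nor did Fam20c and Slc20a1 in Dspp-/-, with a ratio of 1.05 (0.969 to 1.14).

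Marker genes of the cells that make bone and cartilage were lower in the mutant libraries, alongside Alpl, Phex and Fam20c. The 9 osteoblast markers, which include Col1a1, Sp7 and Bglap and none of the 8 genes, had a summed FPKM of 11652 in WT against 3092 (Dspp+/-) and 6413 (Dspp-/-). All 9 were lower in both mutant libraries, 8 of them at least 2-fold in Dspp+/- and 1 in Dspp-/-, and their median log2 ratio was -1.55 and -0.80. Of all genes compared, 43.7% were lower in Dspp+/- and 49.3% in Dspp-/-, and 2.86% and 1.37% were at least 2-fold lower. The 5 osteocyte markers, with Sost the highest, had a median of -0.70 and -0.65, with 1 gene at least 2-fold lower in each mutant library. The 10 chondrocyte markers compared were lower in both mutant libraries, with medians of -2.40 and -1.03 and 8 and 6 genes at least 2-fold lower, and the 8 osteoclast markers were lower likewise, with medians of -1.32 and -0.59. The 3 hypertrophic chondrocyte markers summed to 285.2 FPKM in WT, 28.0 and 128 in the mutant libraries. The 8 neutrophil markers summed to 592 in WT condyles, 2629 in those of Dspp+/- mice and 3480 in those of Dspp-/- mice, and the 6 B cell markers to 320, 900 and 764. The 5 endothelial markers were nearly level, at 110, 128 and 125 FPKM. The 7 skeletal muscle markers summed to 9857, 13603 and 11171 FPKM, and the 5 adipocyte markers to 52.7, 48.1 and 116 FPKM. Not every gene moved as its sum did. In Dspp+/-, 1 of the 6 B cell markers (Vpreb1) was lower, and so was 1 of the 7 muscle markers, Myh4, at 0.147-fold (0.141 to 0.153). In Dspp-/-, 3 muscle markers were lower and 4 higher. Of the 4 adipocyte markers compared, 2 were lower and 2 higher in Dspp+/-, and all 4 were higher in Dspp-/-. No defining marker of these lists was at 0 in any library. The part of these shifts in the values of the 8 genes was not tested.

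**Figure D3:**
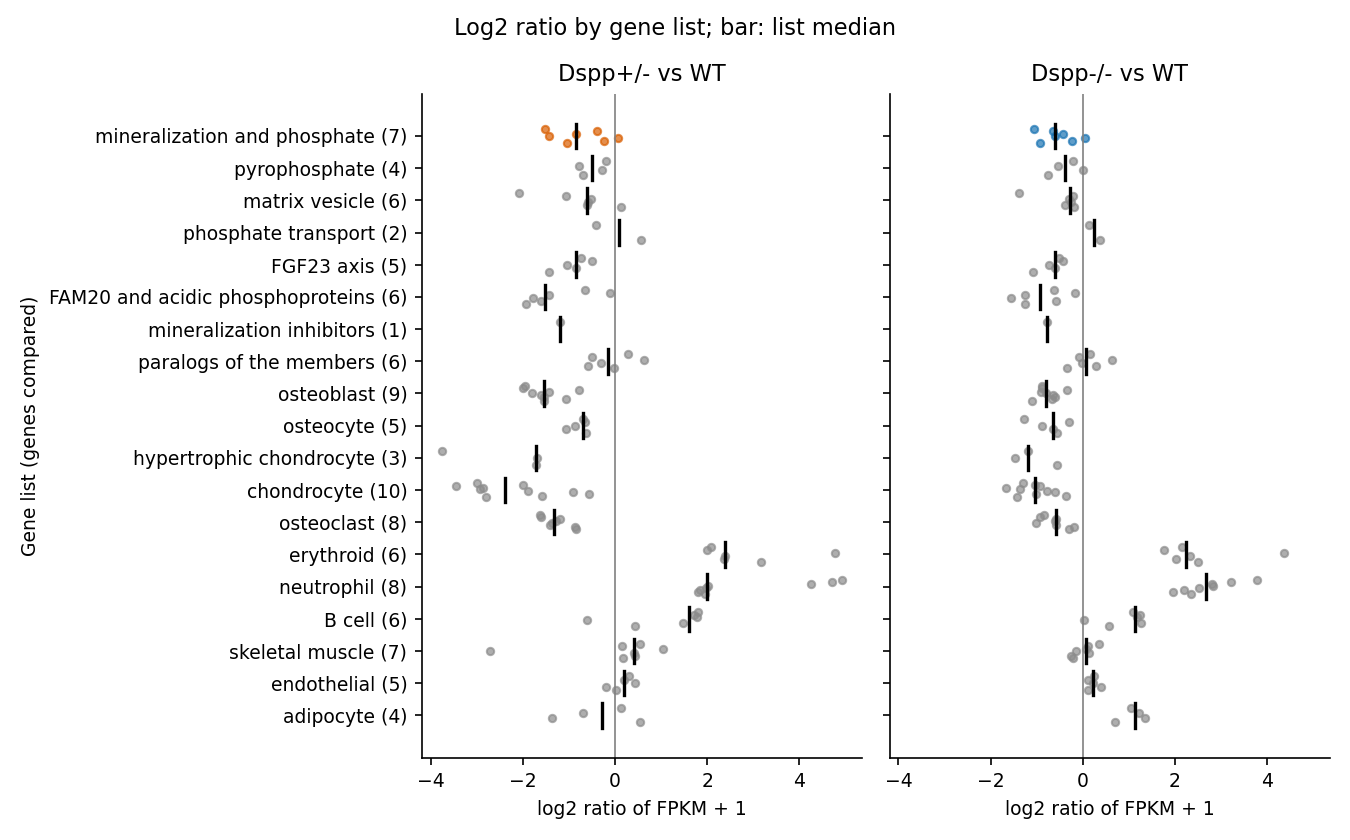
Log2 ratio of FPKM + 1 against WT in Dspp+/- (left) and Dspp-/- (right) for the mineralization and phosphate genes and for each pathway and marker list, with the number of genes compared in brackets; dots are genes and vertical bars list medians. The median of the mineralization and phosphate genes, -0.85 and -0.595, lies between that of the osteoblast list, -1.55 and -0.80, and 0.

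Set against the osteoblast markers, Alpl, Phex and Fam20c were no longer lower in Dspp+/-. When each library was scaled so that the median osteoblast marker was equal to WT, Alpl had a log2 ratio of 0.138 in Dspp+/- and -0.26 in Dspp-/-, and Phex of 0.177 and 0.184. Fam20c had 0.501 in Dspp+/- and -0.18 in Dspp-/-, and Enpp1 had 0.744 and 0.345. Slc20a2 and Slc20a1 had 1.38 and 1.55 in Dspp+/-, at least 2-fold higher, as 80.2% of all genes compared then were. This scaling moved the median of all genes from 0.058 to 1.42 in Dspp+/- and from 0.007 to 0.617 in Dspp-/-, so it gives the genes relative to osteoblast markers and not relative to all genes. No other marker list was used for scaling. In Dspp+/- the osteocyte list had a median of -0.701 and the chondrocyte list of -2.40. Alpl at -1.51, Phex at -1.43 and Fam20c at -1.04 lay between these medians. Leaving hemoglobin, immunoglobulin and skeletal muscle genes out of the library size moved the median of all genes to -0.102 in Dspp+/- and -0.129 in Dspp-/-. With it 4.55% of all genes were at least 2-fold lower and 3.73% higher in Dspp+/-, and 2.53% and 3.37% in Dspp-/-. Enpp1 then passed 2-fold in Dspp+/- and Fam20c in Dspp-/-, and the log2 ratio of Slc20a1 turned from 0.066 to -0.110 in Dspp+/-.

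**Figure D4:**
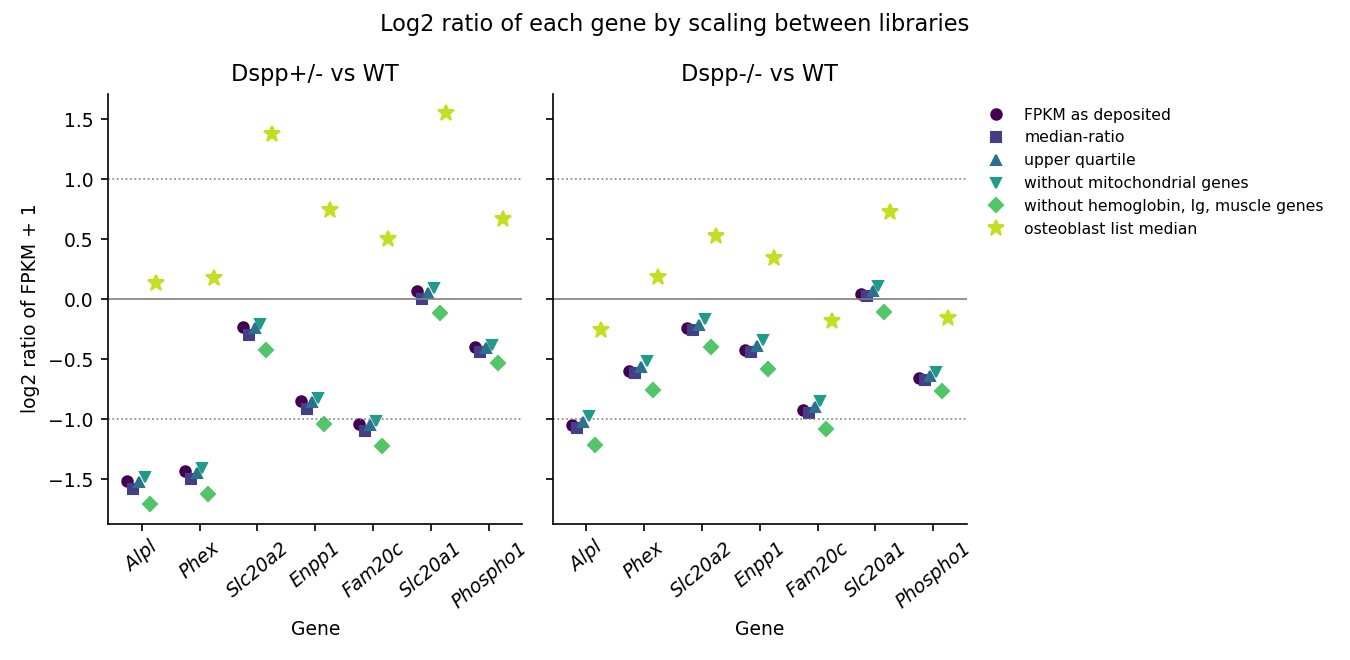
Log2 ratio of FPKM + 1 against WT of the 7 genes compared, in Dspp+/- (left) and Dspp-/- (right), under the deposited FPKM and 5 other scalings between libraries; dotted lines mark 2-fold. The first 5 scalings lie close together for each gene, and scaling to the osteoblast list median (stars) lifts every gene, Alpl in Dspp+/- from -1.51 to 0.138.

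The genes whose pattern over the 3 libraries was nearest to each of the 7 were found by the Euclidean distance over the log2 ratios in Dspp+/- and Dspp-/-, over the 4039 genes averaging 10 FPKM or more. With 2 ratios from 3 libraries that share 1 control, nearness is a description of these values. Nearest to Alpl were P3h1, a collagen prolyl hydroxylase, Tmem119, a membrane protein of osteoblasts, and Pcolce, an enhancer of procollagen processing, at distances from 0.0292 to 0.0421. Nearest to Phex were Oscar, an osteoclast receptor, Loxl2, a lysyl oxidase, and Olfml2b, at distances from 0.0232 to 0.105. Nearest to Fam20c were Chpf, a chondroitin polymerizing factor, Mfge8 and Snai1. Enpp1 was nearest to Ptgfrn, Marveld1 and Cd63, and Phospho1 to Bri3, Slc16a3 and Vat1. Slc20a1 was nearest to Ezr, Usp12 and Trim35, and Slc20a2 to Rpl10, Elp3 and Rexo2.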

How the data were processed

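RNA of mandibular condyles was sequenced in pairs of 150 bases, 1 library per genotype, after poly(A) selection with a NEB kit. The authors deposited 1 value per gene and genotype, whose unit is not named and which was read as FPKM, since value times merged exon length in GENCODE M21 came out, after division by 1 factor for each library, as a whole number (within 0.05 fragments) for 98.2% of 26652 genes. The submitters' processing notes list FastQC 0.11.5, HISAT2 2.1.0, StringTie 1.3.3b, DESeq 1.28.0 and hg38, a human build that mouse gene positions cannot have. Counting rules and filters are not given in the sources used here. The labels mention triplicates, but there is 1 value per gene and genotype, and what was done in triplicate is not known. Positions of genes are those of the table and not of GRCm38, where 589 genes have the same start and end. Promoters are in GRCm38.p6.

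Genes averaging 1 FPKM or more were compared as log2(FPKM + 1), which understates the change of low genes, with a 2-fold threshold. The study's Kruskal–Wallis test cannot be run on 1 library per genotype. Members, lists and thresholds were chosen with earlier results of these data known. Named genes are the 8 members, list genes past 2-fold or acting beside a member, and the 3 genes nearest to each member compared. Genes named as overlapping neighbours, and members of marker lists given as examples, were chosen after their values were seen. The lists were 6 of pathway genes, 1 of paralogs, 12 of cell type markers and 2 of sex-linked genes, and 9 listed symbols were not analysed here. A further marker gene is not reported here and was left out of its list. The enamel organ list had no gene with a mean of 1 FPKM. There were 11 processing alternatives. Fragment recovery and the calling of planted 4-fold changes were tested on simulated data with counting error only. That simulation held no spread between mice and cannot speak for calls near the 2-fold threshold. Scripts ran in Python 3.11.15 with scipy 1.17.1, pandas 2.3.3 and numpy 2.4.6, and figures were drawn with matplotlib 3.10.9.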

Additional observations from a re-analysis of the deposited data

How the results depend on the processing

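The number of the 8 genes past 2-fold changed under some of the 11 alternatives. In Dspp+/-, 3 genes were lower (Alpl, Phex and Fam20c), against 2.86% of all genes compared. A pseudocount of 5 FPKM left 2, without Fam20c at -0.797, where 1.2% of all genes were lower. With Enpp1, 4 were lower at 1.5-fold, against 8.95% of all genes. The same 4 were lower without hemoglobin, immunoglobulin and muscle genes, against 4.55%. None (0) were lower at a 4-fold threshold, against 0.184% of all genes, or with scaling to the osteoblast list, against 0.154%. That scaling made 2 (Slc20a1 and Slc20a2) higher, as it did 80.2% of all genes. It turned the log2 ratios of Alpl, Phex and Fam20c to 0.138, 0.177 and 0.501. In Dspp-/-, 1 gene was lower (Alpl), against 1.37% of all genes compared. With a pseudocount of 0.1, 2 were lower (with Phospho1), against 2.79%. Without hemoglobin, immunoglobulin and muscle genes 2 were lower (with Fam20c), against 2.53%. At 1.5-fold 4 were lower, against 8.21%. None (0) were lower at 4-fold (0.0461% of all genes), without mitochondrial genes (1.07%, Alpl at -0.971) or with scaling to the osteoblast list (0.107%). Between the mutant libraries, 1 gene (Phex) was higher in Dspp-/- at 1.5-fold, against 3.39% of all genes, and 0 at 2-fold, against 0.852%. Under the other thresholds the change in number follows from the threshold itself. Under the other pseudocounts and scalings it follows from the recalculated ratios. Why the scaling factors differ between libraries was not tested. Of 186 log2 ratios recomputed, 136 moved by less than the counting interval reaches to either side, 47 by more, and 3 changed sign from a value past 2-fold. The 136 include all ratios under the other filters on low values, which change the genes compared and cannot change a ratio. No replicate could be left out and no paired analysis was possible because each genotype has 1 library. Depth limits Fgf23 (4 to 17 fragments) and Phospho1 (47 to 91 fragments).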

Other observations

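The 6 relatives of the 8 genes that could be compared did not pass 2-fold in either mutant library. Few genes did: of all genes compared, 2.86% were at least 2-fold lower and 4.88% higher in Dspp+/-. In Dspp-/- these shares were 1.37% and 4.05%. Of 8 paralogs in the table, 6 averaged 1 FPKM or more, with a median log2 ratio of -0.155 in Dspp+/- and 0.077 in Dspp-/-. Among the nucleotide pyrophosphatase relatives of Enpp1, Enpp4 had 8.59 FPKM in WT condyles, 13.8 in those of Dspp+/- mice and 14.0 in those of Dspp-/- mice, with folds of 1.61 (1.48 to 1.76) and 1.63 (1.49 to 1.78), while Enpp1 was lower. Enpp2, which encodes autotaxin, had 10.9, 7.39 and 10.3 FPKM, and Enpp5 had 6.46, 5.065 and 6.41. Phospho2, the relative of Phospho1, had 4.92, 6.25 and 5.63 FPKM. Mme, which encodes neprilysin and belongs to the family of Phex, had 3.24, 1.82 and 4.15 FPKM, so that it was lower than WT in Dspp+/- (fold 0.561, 0.5001 to 0.629) and higher in Dspp-/- (1.284, 1.17 to 1.41). Ece1, of the same family, had 25.4, 25.2 and 19.98 FPKM. The intestinal phosphatase gene Alpi had 2, 0 and 0 fragments, and Ecel1 had 0, 4 and 5.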
